A study of Mus musculus with 12 samples.

Results

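The values below are those of 4 genes on 12 arrays of mature mouse oocytes, namely the oocyte-specific homeobox genes Obox1, Obox2 and Obox3 and the cytoplasmic polyadenylated homeobox gene Cphx1. They were chosen by name through their array probes, 1 probe for each gene, out of 33012 gene probes on the array. All 4 probes had a value on all 12 arrays, and all 4 passed the filter that kept 6088 probes for testing, namely a signal of at least 3 times its noise on at least 6 of 12 arrays.

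The study set oocytes without Dicer, the RNase III enzyme that cuts precursors of microRNAs and small interfering RNAs, against wild-type oocytes. The labels named 6 arrays as Dicer Knock-Out and 6 as Dicer Wild-type, all from mature oocytes. Strain, age, the deleted allele, the promoter behind any Cre and any hormone treatment are given by none of the sources used here. Total RNA was amplified into digoxigenin-labelled cRNA and read on a 1-colour array. The descriptions speak of a single cell, but the number of oocytes or females behind an array is not stated. The p-values therefore reflect how much single arrays varied, and that variation may be technical.

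Homeobox genes encode transcription factors that bind DNA through a homeodomain. Obox genes are a mouse family, expressed in germ cells and the early embryo, whose proteins are known to act redundantly when the embryonic genome is switched on after fertilization. Cphx1 is likewise expressed in oocytes and early embryos, and belongs to a small group of near-identical copies with Cphx2 and Cphx3.

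No source used here gives the probes' own sequences, so signal from near-identical relatives was not tested. Kinship between the genes is visible in the bases before their starts, taken from RefSeq on GRCm38.p6. The Obox genes lie on chromosome 7, in a stretch of 1180 kb (chr7:14659708-15839679) that holds 6 annotated Obox genes and 41 Obox pseudogenes. Obox2 lies at chr7:15388851-15398545, Obox1 at chr7:15547257-15556846 and Obox3 at chr7:15625306-15639777. The 153 bases that end at the start of Obox2 (chr7:15388698-15388850, plus strand) are identical to a run before Obox1 (chr7:15547007-15547159), where it spans 250 to 98 bases before the start. This run is shown because it is the longest the Obox members share in the 250 bases before their starts. It reaches an edge of those 250 bases in both genes, so its full length was not measured.
Obox2 and Obox1: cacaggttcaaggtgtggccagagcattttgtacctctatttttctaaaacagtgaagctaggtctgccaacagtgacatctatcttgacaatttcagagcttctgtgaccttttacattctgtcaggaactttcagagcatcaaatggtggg

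Obox1 and Obox3 share a shorter run of 25 bases, in capitals in the 120 bases before each start (chr7:15547137-15547256, plus strand, and chr7:15639778-15639897, minus strand).
Obox1: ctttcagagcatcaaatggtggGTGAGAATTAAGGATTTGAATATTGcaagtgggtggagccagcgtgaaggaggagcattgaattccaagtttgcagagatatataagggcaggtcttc
Obox3: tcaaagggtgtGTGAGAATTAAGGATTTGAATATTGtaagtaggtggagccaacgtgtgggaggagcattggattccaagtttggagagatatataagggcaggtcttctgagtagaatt

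Cphx1 lies on chromosome 14 (chr14:25941559-25956374), near Cphx2 and Cphx3. Of the 250 bases before the start that the promoter table uses for Cphx1, which lies inside the annotated gene, a run of 246 is the same before Cphx2 and Cphx3. The run ends 4 bases before the start used for Cphx1 but right at the starts of Cphx2 and Cphx3, so the windows compared are offset. The last 120 bases (chr14:25942424-25942543, plus strand) are shown with the shared bases in capitals. The 4 bases in small letters had no counterpart in the other windows and do not mark a difference between the copies.
Cphx1: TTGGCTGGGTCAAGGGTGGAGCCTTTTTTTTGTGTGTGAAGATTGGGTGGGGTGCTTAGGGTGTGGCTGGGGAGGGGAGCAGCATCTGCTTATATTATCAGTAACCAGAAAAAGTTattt

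The longest run that Cphx1 shares with an Obox member over these 250 bases was 11 bases, with Obox3 on the other strand. A set of 3 short motifs was searched on both strands over the 250 bases of 27025 promoters. The TATA-type motif TATATAAG stood 19 bases before the start of Obox1 and 30 before that of Obox3, and in 0.992% of all promoters. TAATCC, a motif bound by homeodomains of the OTX2 and CRX type, stood 168 bases before the start of Obox3 on the other strand, and in 6.38% of promoters. TAATTG, known for the oocyte homeodomain protein NOBOX, was in none of the 4 windows, and in 7.34% of promoters. These matches describe letters and not bound sites.

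The knockout arrays were brighter as a whole. Between 7361 and 9598 probes were above background on a knockout array and between 5707 and 7102 on a wild-type array. The median signal of tested probes was 2736 to 6732 intensity units on knockout arrays and 1069 to 2580 on wild-type arrays. With the number of oocytes unknown, more cells on an array, more RNA per cell and technical differences between the arrays, array order among them, cannot be told apart. Of 9 oocyte markers listed, only Mos, a kinase that holds the mature egg in arrest, had a named probe; it was detected above background on all 6 knockout arrays and on 5 of 6 from the wild type. Its level was not alike in the groups, with quantile-normalized log2 values of 13.23 to 14.52 in the knockout and 8.14 to 11.47 in the wild type (log2 fold change 3.46; limma, adjusted p = 0.000143). Sfrp4, the only one of 12 cumulus and granulosa markers with a named probe, was detected on 1 of 6 knockout arrays and on none from the wild type. Hba-a1, the only one of 5 blood markers, was detected on 1 of 6 arrays of each genotype. None of 4 theca and stroma markers had a named probe. Dicer1 had no named probe, so the labels could not be checked on the targeted gene.

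All 4 homeobox probes were above background on every array, with signals of 9.24 to 86.8 times the noise. Scanner signals before scaling are given first, in kilo-units of intensity (k), and carry the brightness of the whole array.

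Cphx1 was the gene whose groups stood apart. Its signal was 373.8 k at the lowest, 451 k at the median and 573.9 k at the highest on the knockout arrays, and 58.62, 105.2 and 164.3 k on the wild-type arrays. No knockout array was below any wild-type array, which held, with the knockout higher, for 27.6% of tested probes before scaling. After quantile normalization, which gives every array the same distribution of signals, log2 values of Cphx1 were 18.40 ± 0.355 in the knockout and 17.45 ± 0.2525 in the wild type (SD, n = 6 arrays each). The groups still did not overlap, with 17.80 to 18.81 against 17.07 to 17.77; the same held for 15.2% of tested probes. Cphx1 rose 1.93-fold in the knockout (95% confidence interval 1.39 to 2.69; log2 fold change 0.95 ± 0.22, SE; limma, adjusted p = 0.00321).

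That call is read against the background: 50.4% of tested probes passed an adjusted p of 0.05, and 28.0% passed it with the knockout higher. Of the 4 homeobox genes, 1 passed, a share below that of all tested probes. The median log2 fold change over tested probes was 0.186, and relative to it Cphx1 was higher by 0.76. When the medians of the tested probes were set equal instead, Cphx1 was at 0.61 and no longer passed (adjusted p = 0.0684), where 52.4% of tested probes did.

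Obox1 had one of the brightest probes on the array. Its signal was 1637, 2668 and 3064 k (lowest, median, highest) on the knockout arrays and 1460, 1649 and 2946 k on the wild-type arrays. The groups overlapped, since wild-type replicate 2 was brighter than 5 knockout arrays and knockout replicate 2 was at the level of most wild-type arrays. Quantile-normalized log2 values were 21.04 ± 0.308 and 21.10 ± 0.0897 (SD, n = 6 each), a log2 fold change of -0.06 ± 0.19 (SE; 95% confidence interval -0.48 to 0.36; limma, adjusted p = 0.807). Quantile normalization sets a value by its place in the order of brightness, and Obox1 was among the 17 brightest probes on every array. Its value thus had little room to rise, and a difference near 0 does not show equal levels. Obox1 spots carried a quality flag of 4 on 5 of 6 knockout arrays and 1 of 6 wild-type arrays. What the flag means is stated in no source used here. It stood on 1 to 26 probes of an array, none with a signal under 713.7 k, and on no spot of Obox2, Obox3 or Cphx1.

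Obox2 had the widest spread of the 4 genes within the knockout, on the log2 scale. Its signal was 3.968, 16.87 and 54.94 k (lowest, median, highest) in the knockout and 1.774, 2.942 and 6.106 k in the wild type. Knockout replicates 3 and 5 were far above the rest, at 54.94 and 53.19 k, and knockout replicate 2, at 3.968 k, fell among the wild-type arrays. Quantile-normalized log2 values were 13.65 ± 1.022 and 12.64 ± 0.355 (SD, n = 6 each), a 2.01-fold difference whose interval runs from 1.07 to 3.77. It did not pass the threshold (log2 fold change 1.004 ± 0.42, SE; limma, adjusted p = 0.0626). Its wild-type spots were also the least precise: the spot error was 3.64% to 10.8% of the signal there and 1.38% to 4.41% in the knockout.

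Obox3 varied less than Obox2 and more than Obox1 and Cphx1 within the knockout. Its signal was 86.45, 292 and 513.1 k (lowest, median, highest) in the knockout and 51.1, 72.92 and 206.2 k in the wild type. Again knockout replicates 3 and 5 were the brightest and replicate 2 was inside the wild-type range. Quantile-normalized log2 values were 17.64 ± 0.672 and 17.20 ± 0.368 (SD, n = 6 each), and the log2 fold change was 0.44 ± 0.32 (SE; 95% confidence interval -0.25 to 1.12; limma, adjusted p = 0.273).

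**Figure D1:**
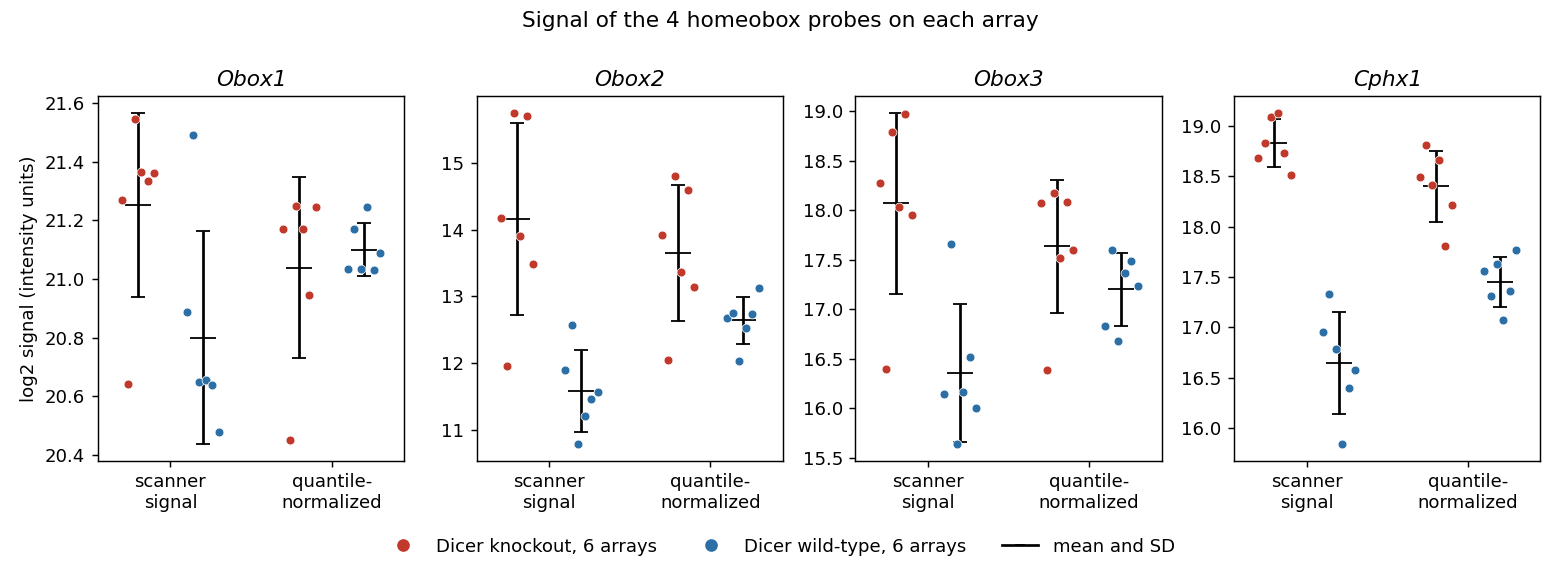
Log2 signals of the 4 probes on each array (vertical axis, log2 intensity units), before scaling and after quantile normalization; each point is 1 array, and bars are the mean and SD of 6 arrays. Cphx1 is the one probe whose groups are apart after normalization, and knockout replicate 2 is the lowest knockout point for Obox1, Obox2 and Obox3, at 20.45, 12.05 and 16.38 after normalization.

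With quantile normalization over all probes, leaving out knockout replicate 2, and no other single array, changed the calls of Obox2 and Obox3. That array had the fewest probes above background among the knockout arrays (7361) and the lowest weight when limma estimated array weights (0.483, against 0.699 to 2.12 for the other arrays). Without it, 52.5% of tested probes passed. Obox2 then passed at 1.32 ± 0.33 (log2 fold change, SE; limma, adjusted p = 0.00592) and Obox3 at 0.69 ± 0.24 (adjusted p = 0.0302). Cphx1 was at 0.87 ± 0.22 (adjusted p = 0.00567), and Obox1 at 0.06 ± 0.16 (adjusted p = 0.8). Cphx1 itself was highest, not lowest, on that array after normalization.

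The size of every difference moved with the way the arrays were put on a common scale, as the plot of log2 fold changes by scaling shows. Cyclic loess gave 1.24 for Cphx1 (limma, adjusted p = 0.000774) and 1.09 for Obox2, which passed there (adjusted p = 0.0346), with 51.0% of tested probes passing. Quantile normalization over the tested probes alone gave 0.95 for Cphx1 (adjusted p = 0.00293), where 52.0% passed. With the scanner software's own normalized signal, Cphx1 was at 1.28 (adjusted p = 0.00354) and Obox2 at 1.66 (adjusted p = 0.0167), and 42.6% passed.

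Scalings that keep the brightness of the knockout arrays gave larger values. With hybridization control spots set equal on every array, the log2 fold changes were 2.08 for Cphx1, 2.47 for Obox2 and 1.61 for Obox3, all past the threshold (limma, adjusted p = 1.19e-05, 0.00162 and 0.00537), as were 59.2% of tested probes. With the control spots of the in vitro transcription, they were 2.45, 2.83 and 1.97 (adjusted p = 9.93e-06, 0.000904 and 0.00211), and 67.4% passed. The authors' deposited table gave 2.12, 2.56 and 1.66 (adjusted p = 2.72e-06, 0.000114 and 0.000416), and 65.5% passed. In these scalings the median tested probe was itself higher in the knockout, by 1.29, 1.65 and 1.39. In the deposited table, arrays of the same genotype with Obox1 at the same brightness rank had the same Obox1 value, but the genotypes differed. At rank 3 it was 21.398 (log2) on knockout replicates 1 and 4 and 20.897 on wild-type replicate 2. Such values drop brightness differences within a genotype and keep the offset between genotypes. The p-values from that table may therefore be too small.

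Obox1 changed direction with the scaling. It was lower in the knockout by median scaling, at -1.13 ± 0.20 (log2 fold change, SE; limma, adjusted p = 0.000537). Under that scaling 1796 of 6088 tested probes were called lower. Obox1 was higher in the authors' deposited table, at 0.49 ± 0.18 (limma, adjusted p = 0.0297). There its value followed its brightness rank within a genotype. At rank 2 it was 21.466 (log2) on knockout replicates 3 and 6 and 20.985 on wild-type replicate 4. That call carries the offset between genotypes and does not show that Obox1 itself rose. Obox1 did not pass under the other 6 scalings, at -0.45 to 0.71.

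The values can also be read relative to the median tested probe of the same scaling. Scalings by 1 factor per array give nearly the same value here by construction, so their likeness is no sign of stability. Cphx1 was above that median by 0.73 to 1.17 under the 8 scalings, Obox2 by 0.82 to 1.18 and Obox3 by 0.25 to 0.63. Obox1 was below it under 7 scalings (-0.133 to -1.005) and above it by 0.08 with quantile normalization over the tested probes.

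**Figure D2:**
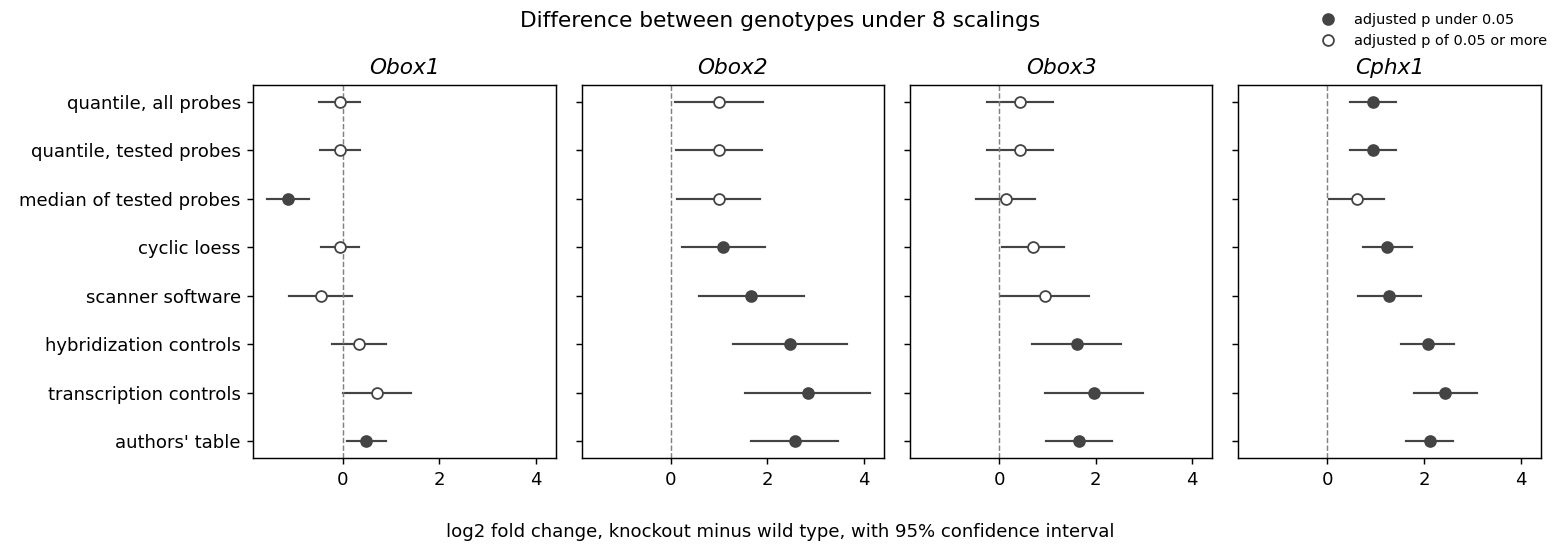
Log2 fold changes (horizontal axis, knockout minus wild type) of the 4 genes under 8 scalings, with 95% confidence intervals; filled points have an adjusted p under 0.05. Cphx1 is filled in every scaling but the median (0.61), Obox2 and Obox3 are above 0 throughout, and Obox1 runs from -1.13 to 0.71.

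Other choices in the fit changed the call of Obox2 alone. Its difference of 1.004 passed when tests were kept to probes above background on all 12 arrays (limma, adjusted p = 0.0349; 64.0% of probes passed) and with a trended, robust prior (adjusted p = 0.0443; 51.3% passed). With array weights it was 1.03 (adjusted p = 0.0376; 53.0% passed).

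Ranks do not depend on a common scale for a whole array. Rank 1 is the brightest of the 32360 to 32815 gene probes with a value on an array. A rank orders spot brightness, not transcript number, since probes differ in how strongly they bind.

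Cphx1 ranked 83 at best, 114 at the median and 192 at worst on the knockout arrays, and 196, 243.5 and 309 on the wild-type arrays. Every knockout array placed Cphx1 nearer the top than any wild-type array, as was so for 15.0% of tested probes. The mean log10 rank differed by -0.316 (p = 0.00216 by an exact two-sided permutation test, which can go no lower with 6 arrays a group, and 0.00866 after adjustment over the 4 members). When probes were ranked by the software's normalized signal the groups overlapped, with log10 ranks of 1.89 to 2.37 in the knockout and 2.27 to 2.48 in the wild type, and the adjusted p was 0.0346 (exact permutation test).

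Obox1 ranked 2 to 17 on the knockout arrays (median 3) and 2 to 5 on the wild-type arrays (median 4.5). So near the top, its rank had little room to rise. Obox3 ranked 144 to 438 (median 188.5) and 221 to 380 (median 270), and Obox2 938 to 2636 (median 1506.5) and 1809 to 2646 (median 2091). The groups overlapped for all 3 Obox genes, and none passed (exact two-sided permutation tests, adjusted p = 0.868 for Obox1, 0.196 for Obox3 and 0.104 for Obox2). Without knockout replicate 2, Obox2 and Obox3 did (adjusted p = 0.00433 and 0.0115, exact permutation tests). That array held the worst knockout rank of both, 2636 and 438. The share of all tested probes that would pass by rank without it was not counted, so these calls have no background to be read against.

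**Figure D3:**
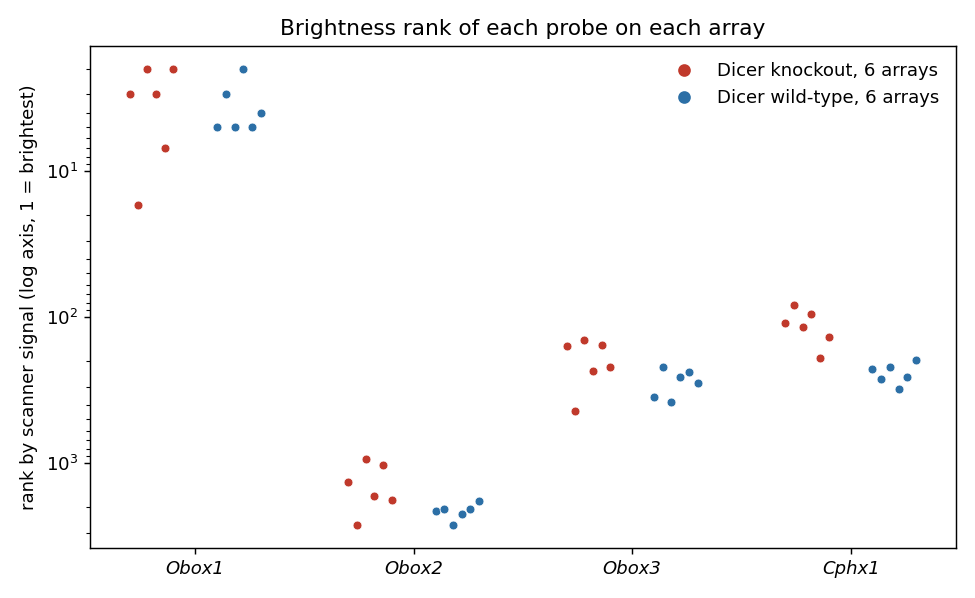
Rank of each probe by scanner signal (vertical axis, log scale, 1 is the brightest), with 1 point for each array. Cphx1 ranks 83 to 192 in the knockout and 196 to 309 in the wild type, while the ranks of the 3 Obox probes overlap.

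As a share of an array's summed signal, Obox1 and Cphx1 moved apart. Obox1 took 0.708% to 1.05% of the summed signal on the knockout arrays and 1.32% to 1.61% on the wild-type arrays, lower without overlap, which held for 9.58% of tested probes. Cphx1 took 0.116% to 0.22% on the knockout arrays and 0.0572% to 0.101% on the wild-type arrays, higher without overlap, which held for 17.4% of tested probes. The shares of Obox3 overlapped, with 0.0408% to 0.139% against 0.0426% to 0.0982%. So did those of Obox2, with 0.00187% to 0.0169% against 0.00148% to 0.00317%. A share depends on all other signals of the array, and whether the brightest spots responded linearly was not tested.

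Differences between log2 signals of a pair of probes on the same array drop any factor common to the array. They show that a pair changed unequally, not which gene moved. Under median scaling Obox1 stood at -0.94 (log2) relative to the median tested probe, so a shift against Obox1 is not particular to these pairs. The share of other probes that part from Obox1 in this way was not counted. Over the 6 pairs of members, the difference between Obox1 and Cphx1 was 1.81 to 2.85 on the knockout arrays and 3.87 to 4.82 on the wild-type arrays. The groups did not overlap, with means of 2.42 ± 0.362 and 4.16 ± 0.358 (SD, n = 6 each; p = 0.00216 by an exact two-sided permutation test and 0.00649 after adjustment over 6 pairs).

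Obox1 and Obox2 also changed unequally, by 2.12 on the log2 scale (knockout minus wild type -2.12). Their difference was 5.64 to 8.69 in the knockout and 8.90 to 9.86 in the wild type, without overlap (exact permutation test, adjusted p = 0.00649). Obox1 minus Obox3 was 2.37 to 4.24 in the knockout and 3.84 to 5.01 in the wild type, a shift of -1.26 with overlap (exact permutation test, adjusted p = 0.013). In all 3 pairs the Obox1 probe was lower relative to its partner in the knockout. The 3 pairs share that probe, so they are not separate findings. How many other probes part from Obox1 in the same way was not counted, so these calls are not particular to the members. These are also the pairs with the probe that carried the flag of 4 on 5 of 6 knockout arrays and 1 of 6 wild-type arrays. Whether those spots had reached the top of the scanner's range, which would lower Obox1 mainly in the knockout, was not tested.

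Obox2 minus Obox3 shifted by 0.86 in the knockout, with overlapping groups of -4.46 to -3.04 and -5.08 to -4.24 (exact two-sided permutation test, adjusted p = 0.0195). This call did not hold with the software's normalized signal (0.72, adjusted p = 0.0714, exact permutation test), nor without wild-type replicate 2, 3, 4 or 5 (adjusted p = 0.0519 at most). The software divided the Obox3 signal by another factor than the other members' signals, at 0.597 to 1.52 times theirs. No unequal change was found between Obox2 and Cphx1 (0.38, adjusted p = 0.565) or between Obox3 and Cphx1 (-0.47, adjusted p = 0.413, exact permutation tests). Those values ranged widely in the knockout, from -6.88 to -3.03 and from -2.43 to 0.24, so a p above the threshold does not show equal change.

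**Figure D4:**
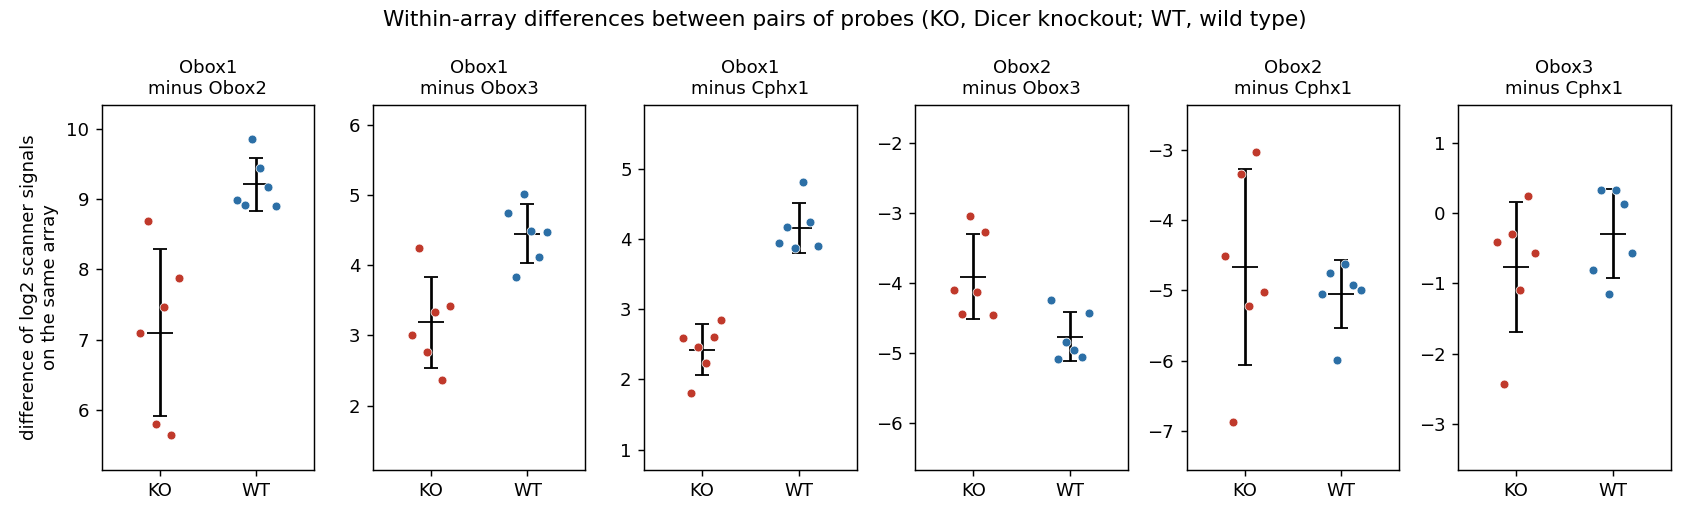
Difference of log2 scanner signals for each pair of members on the same array (vertical axis; panels share a span but not an origin), with the mean and SD of 6 arrays. Obox1 minus Obox2 and Obox1 minus Cphx1 are lower on all knockout arrays, and the pairs of Obox2 or Obox3 with Cphx1 overlap.

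Within the knockout group, Obox2 and Obox3 varied alike more than either did with Cphx1. Obox2 and Obox3 were both highest on replicates 3 and 5 and lowest on replicate 2, while Cphx1 was highest on replicate 2 and lowest on replicate 5 after normalization. The root mean square difference of their centred profiles over the 6 knockout arrays was 0.415 for Obox2 with Obox3, 0.856 for Obox3 with Cphx1 and 1.17 for Obox2 with Cphx1 (log2 units). In the wild type the same pairs were at 0.310, 0.505 and 0.366. Obox1 did not follow that split: in the knockout it was at 0.420 from Obox3, 0.492 from Cphx1 and 0.787 from Obox2, and in the wild type at 0.299, 0.295 and 0.326. These are descriptions over 6 arrays that share one amplification chemistry and scan date, with no test. Among the knockout arrays, the median signal of tested probes was also highest on replicates 5 and 3 (6732 and 5937 intensity units) and lowest on replicate 2 (2736). Whether Obox2 and Obox3 followed the brightness of the whole array was not tested.

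Over all 12 arrays, each member's profile was set against 6019 tested probes with a value on each array, 69 of them named. The nearest named probe to Obox2 was Obox3, at a root mean square difference of 0.464 log2 units, followed by Llgl1, a cell polarity gene, at 0.528 and B9d1, a gene of the ciliary transition zone, at 0.595. The nearest to Obox3 were B9d1 at 0.300, Obox1 at 0.441 and Obox2 at 0.464. For Obox1 they were Prr18 at 0.296, B9d1 at 0.302 and Mprip, a binding partner of myosin phosphatase, at 0.352.

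For Cphx1 the nearest named probes were Pfdn5, a prefoldin subunit, at 0.359, the splicing factor gene Sf3b5 at 0.426 and the copper chaperone gene Atox1 at 0.555. Their log2 fold changes were 0.57 ± 0.20, 1.62 ± 0.24 and 0.38 ± 0.37 (SE), given as a description, since the likeness that chose them includes the difference between genotypes. Nearer unnamed probes existed for every member: 94 probes were closer to Obox2 than Obox3 was, and 42 were closer to Cphx1 than Pfdn5 was. For Obox1, 155 were closer than Prr18, and for Obox3, 40 were closer than B9d1. The likeness of Obox2 and Obox3 was not close in both directions, since 329 probes were closer to Obox3 than Obox2 was.

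The wider family could not be followed here. None of 30 other listed homeobox genes of the oocyte and early embryo, among them Obox5, Obox6, Nobox and Otx2, had a probe that the files and the gene table pair with a symbol. Named probes of 3 homeobox genes of other tissues were also read, picked after the named probes were seen. Gbx1 was detected on 0 of 6 arrays in the knockout and 1 of 6 in the wild type, Lhx2 on 1 and 0, and Pou3f3 on 0 and 0. None of them was tested, whereas Obox1, Obox2, Obox3 and Cphx1 were above background on all 12 arrays.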

How the data were processed

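The array design (Mouse Genome Survey Microarray, version 1.0) and the AB1700 image software (version 1.1.1) are named per the file headers. From the deposited scanner files, the columns used were the linear signal intensity of each spot, its signal over noise (a score) and its quality flags (other values). The spot error and the scanner software's normalized signal were also read. The authors' deposited value table, also linear intensity, served as an alternative; no source used here says how it was made. Spots with flags of 5000 or more were set to missing, and control spots were left out. Quantile normalization ran over all 12 arrays on the linear signals, followed by log2 with no offset. Probes with signal over noise of at least 3 on at least 6 of 12 arrays (6088) were tested with limma 3.58.1 (R 4.3.3; lmFit, eBayes, two-sided), with Benjamini-Hochberg adjustment over all of them and a threshold of 0.05; adjusted p-values called limma come from this fit or, where a sentence names another scaling, filter or set of arrays, from the same model under that alternative. The fit was tested on simulated data.

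For ranks and within-array differences, exact permutation tests (two-sided) ran over 924 regroupings, adjusted over 4 members or 6 pairs. Array numbers run through the knockout arrays first, so array order and genotype cannot be told apart, and the headers give 1 scan date for all of them. The number of arrays limits the precision.

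The genes named were the 4 members, the 3 nearest named probes to each, and listed genes with a named probe; the gene table (GRCm38.p6) gave symbols to 316 probes, and other probes stay unnamed here. The part of the rule that looked for the word homeobox in gene descriptions could not be applied, as the table used has none. The members and lists were chosen with earlier results of these data known. Alternatives were other scalings, an offset of 50, other filters, leaving out each array, and other estimates of the spread. Promoter sequences came from RefSeq. Figures used matplotlib 3.10.9 in Python 3.11.15.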

Additional observations from a re-analysis of the deposited data

Results flagged for a closer look

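Obox3 on knockout replicate 2 stood far from the other knockout arrays, at a quantile-normalized log2 signal of 16.38 against 17.51 to 18.17. Obox2 minus Cphx1 on wild-type replicate 3 stood far from the other wild-type arrays, at a log2 difference of -5.99 against -5.05 to -4.62. The gaps to the nearest other array were 0.632 and 0.692 of the group's whole range, past Dixon's 95% critical value. Chance gives such a gap in about 1 in 20 groups; 28 groups were searched, where 1.4 would come by chance and 2 were found. On wild-type replicate 3 the Obox2 spot also had its lowest signal over noise, 9.24.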

How the results depend on the processing

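Of 254 recomputed values, 223 kept their direction and their side of the threshold, or for counts stayed within 1.5 times. Values that missed the threshold both times count as kept. Other filters, another prior and the permutation test reuse the same difference. The software's signal leaves the differences among Obox1, Obox2 and Cphx1 the same by construction. These counts are therefore no measure of stability. Cphx1 kept its call (limma, adjusted p under 0.05) in 24 of 25 alternatives and lost it with median scaling (0.61). Obox1, near 0, turned positive with hybridization controls (0.35), transcription controls (0.71), the deposited table (0.49), array weights (0.019) and without knockout replicate 2 (0.055), and passed with median scaling (-1.13). Obox2 passed with cyclic loess (1.09), the software's signal (1.66), hybridization controls (2.47), transcription controls (2.83), the deposited table (2.56), probes above background on all 12 arrays (1.004), a trended robust prior (1.004), array weights (1.03) and without knockout replicate 2 (1.32). Obox3 passed with hybridization controls (1.61), transcription controls (1.97), the deposited table (1.66) and without knockout replicate 2 (0.69). The causes were not tested.

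Leaving out each array in turn gave log2 fold changes of -0.104 to 0.055 for Obox1, 0.77 to 1.32 for Obox2, 0.33 to 0.69 for Obox3 and 0.87 to 1.07 for Cphx1 (adjusted p = 0.00168 to 0.00925). Differences in log10 rank were -0.099 to 0.087 for Obox1, turning negative without knockout replicate 2 (-0.099), knockout replicate 5 (-0.022) or wild-type replicate 4 (-0.03), -0.213 to -0.123 for Obox2, -0.199 to -0.102 for Obox3 and -0.358 to -0.285 for Cphx1. Within-array shifts were -2.44 to -1.83 for Obox1 minus Obox2, -1.47 to -1.10 for Obox1 minus Obox3, -1.82 to -1.60 for Obox1 minus Cphx1, 0.68 to 0.97 for Obox2 minus Obox3, 0.06 to 0.83 for Obox2 minus Cphx1 and -0.67 to -0.14 for Obox3 minus Cphx1. Obox2 minus Obox3 lost its call with the software's signal (0.718) and without wild-type replicate 2 (0.795), 3 (0.841), 4 (0.821) or 5 (0.799). Probes called numbered 3066 (1705 higher, 1361 lower), 2789 to 3199 with an array left out, and 1906 with only probes above background on all arrays, where fewer were tested (703 higher, 1203 lower).

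Scaling moved the split of calls: 1393 higher and 1796 lower with median scaling, 1421 and 1743 with quantile normalization over tested probes, 2080 and 511 with the software's signal, 3460 and 146 with hybridization controls, 4038 and 64 with transcription controls, and 3842 and 146 in the deposited table. No paired analysis was possible because the replicate numbers only follow sample order. Signal over noise limited Obox2 most, down to 9.24 in the wild type.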
